A study of Mus musculus with 4 samples.

Results

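The ionotropic and metabotropic receptors for glutamate and GABA, the main excitatory and inhibitory transmitters of the hypothalamus, were described gene by gene in single-nucleus RNA sequencing of the mouse hypothalamus. Members were the genes whose symbols name a subunit of these receptors and that had at least 10 unique molecular identifiers (UMIs, counted RNA molecules) over all libraries. Of 33696 listed genes, 46 had such a symbol and 45 reached the minimum. Grm6, a metabotropic receptor best known from the retina, was listed but stayed below it. The choice used symbols and total counts, and no comparison between groups or cell classes.

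Wild-type C57BL/6J mice received imidazole propionate (ImP), which gut microbes make from histidine. The dose of 350 µg per day came for 2 weeks from an osmotic pump implanted intraperitoneally. ImP was dissolved in sterile water with 1% DMSO. The control mice, likewise with a conventional gut flora, received vehicle by the same route. The hypothalamus was frozen after perfusion and its nuclei were sequenced from the 3′ ends of their transcripts. Each group had 2 libraries, and values are given below in the order vehicle 1, vehicle 2, ImP 3, ImP 4. Age and sex are not in the labels, nor is it stated that libraries came from different mice, so p-values measure the spread between these libraries, which may be technical.

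AMPA receptors, encoded by the Gria genes, carry fast excitatory current. NMDA receptors, encoded by the Grin genes, need depolarisation as well as glutamate, and kainate (Grik) and delta (Grid) receptors modulate transmission and organise synapses. The Grm genes encode G protein-coupled receptors, of which group I couples to phospholipase C and groups II (Grm2, Grm3) and III (Grm4, Grm7, Grm8) inhibit adenylyl cyclase, often on presynaptic terminals. GABA-A receptors are pentameric chloride channels built from alpha, beta, gamma and rarer subunits. The GABA-B receptor is a G protein-coupled dimer of the Gabbr1 and Gabbr2 products. In the hypothalamus these receptors govern the firing of the neurons that control feeding, water balance, arousal and hormone release.

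After removal of nuclei with fewer than 500 genes or over 5% mitochondrial UMIs, 10917, 13023, 14757 and 15725 nuclei were kept, with median depths of 3757, 3179, 2852 and 2820 UMIs. Both ImP libraries had more nuclei and fewer UMIs per nucleus than both vehicle libraries. Cell barcodes shared by a pair of libraries numbered 35 to 67. Nuclei were assigned to classes by counts of distinct marker genes, none of which is a receptor gene. The gates held 32580 neurons, 2564 astrocytes, 3910 oligodendrocytes, 963 oligodendrocyte precursors and 344 microglia over the 4 libraries, and 13938 nuclei stayed ungated. ImP 4 stood apart in pituitary hormone RNA, whose summed level in neurons was 36.2, 7.27, 31.5 and 2518 CPM (UMIs of a gene as a rate of all UMIs in the sum, scaled to a fixed total). That RNA was higher in ImP 4 in neurons and in each of the 4 glial classes, with microglia at 54.7, 31.2, 106 and 5232 CPM. In the same library 720 nuclei carried pituitary signs (several pituitary transcription factors or many hormone UMIs) against 9 to 11 in each of the others. Of these, 379 passed the neuron gate, 4.13% of the neurons of ImP 4, and are part of its neuron sums. Neurons with such signs numbered 9 in vehicle 1, 6 in vehicle 2 and 5 in ImP 3.

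All levels are CPM of the UMI counts summed over the nuclei of a class in a library. Values are compared between classes or libraries for the same gene and never between genes, since longer genes can yield more molecules in nuclear RNA. A summed level cannot tell fewer expressing nuclei from less RNA per nucleus. The members together took 1.75% to 1.85% of kept UMIs in each library. At the low end, Gabra6 had 15 UMIs in all, Gabrr3 23, Gabrr1 99, Gabrd 107 and Grin3b 130. Among neurons, 36 members had a mean of 10 CPM or more. For 33 of these 36 the highest of the 4 libraries was under 1.2 times the lowest, and the widest ratio was 1.26, for Grin1, the obligatory NMDA subunit.

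Grik3 and Grm2 had the largest differences in each direction between GABAergic and glutamatergic neurons, and Grin2c and Gabrr2 the largest increases over neurons in astrocytes and oligodendrocytes. The sequence around the start of these 4 genes is shown for that reason. The windows run from 250 bases before to 50 bases after the annotated start, 5′ to 3′ on the gene's strand, from RefSeq on GRCm38.p6, an older build than the GRCm39 of the counts. Capitals mark matches on either strand to the GC box GGGCGG, the E-box CACCTG, the homeodomain core TAATTA or the SOX motif ACAAAG. Grik3 lies at chr4:125490446-125490745 on the plus strand, Grm2 at chr9:106656060-106656359 on the minus strand, Grin2c at chr11:115267194-115267493 on the minus strand and Gabrr2 at chr4:33062862-33063161 on the plus strand.
Grik3: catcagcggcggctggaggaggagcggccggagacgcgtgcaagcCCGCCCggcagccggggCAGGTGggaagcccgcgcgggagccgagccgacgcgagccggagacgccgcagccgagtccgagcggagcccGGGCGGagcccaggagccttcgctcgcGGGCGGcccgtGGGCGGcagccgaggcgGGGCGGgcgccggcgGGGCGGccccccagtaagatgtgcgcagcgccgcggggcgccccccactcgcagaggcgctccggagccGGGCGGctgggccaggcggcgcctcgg
Grm2: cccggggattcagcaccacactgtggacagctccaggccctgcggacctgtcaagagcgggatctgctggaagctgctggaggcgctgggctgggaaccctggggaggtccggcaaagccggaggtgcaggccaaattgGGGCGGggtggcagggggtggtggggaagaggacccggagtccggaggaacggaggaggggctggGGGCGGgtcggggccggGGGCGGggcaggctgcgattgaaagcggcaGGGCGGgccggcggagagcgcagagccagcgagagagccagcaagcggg
Grin2c: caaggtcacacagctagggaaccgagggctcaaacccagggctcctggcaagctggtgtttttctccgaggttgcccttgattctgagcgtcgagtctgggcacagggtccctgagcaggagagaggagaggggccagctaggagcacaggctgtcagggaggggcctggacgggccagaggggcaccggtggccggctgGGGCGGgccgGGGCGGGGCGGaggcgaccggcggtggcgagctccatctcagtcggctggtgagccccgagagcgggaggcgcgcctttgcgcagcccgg
Gabrr2: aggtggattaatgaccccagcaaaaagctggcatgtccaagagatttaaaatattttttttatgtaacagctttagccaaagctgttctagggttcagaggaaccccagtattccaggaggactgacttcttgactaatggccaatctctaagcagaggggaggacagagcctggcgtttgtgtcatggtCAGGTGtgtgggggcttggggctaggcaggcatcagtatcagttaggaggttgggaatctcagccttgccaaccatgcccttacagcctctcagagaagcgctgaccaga
Grik3 held 7 GC boxes and 1 E-box, Grm2 held 4 GC boxes, and Grin2c held 3 GC boxes, of which a pair overlaps by 1 base. Gabrr2 held no GC box and 1 E-box. None of the 4 windows held TAATTA or ACAAAG. Of 32851 promoters of this length, 35.7% held the GC box, 20.2% the E-box, 5.29% the homeodomain core and 18.7% the SOX motif. Promoters were matched for 30 of the 45 members, of which 18 held the GC box, 9 the E-box, 1 the homeodomain core and 2 the SOX motif. A match is a run of letters and was not tested as a binding site.

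**Figure D1:**
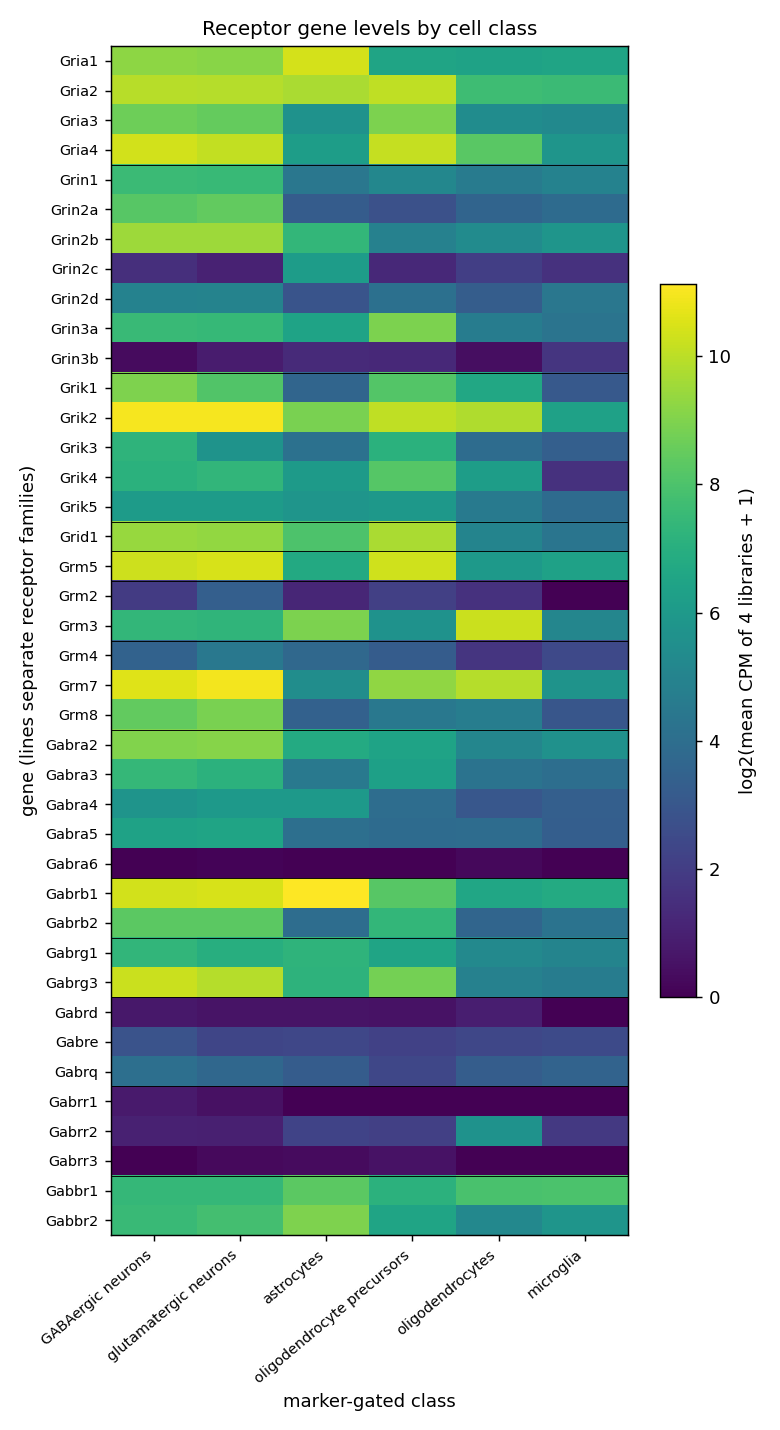
Mean level of 40 receptor genes over 4 libraries, as log2(CPM + 1), in 6 marker-gated classes, with lines between receptor families. Grin2c is brightest in astrocytes, Gabrr2 and Grm3 in oligodendrocytes and Grin3a in oligodendrocyte precursors, while most other rows are brightest in neurons.

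The first comparison asked how receptor genes differ between neurons that release GABA and those that release glutamate. Nuclei with at least 2 UMIs of Slc32a1, Gad1 and Gad2 and none of the vesicular glutamate transporters were called GABAergic (1658, 1810, 1614 and 1923 nuclei). Those with at least 1 UMI of a vesicular glutamate transporter and none of the GABA genes were called glutamatergic (1637, 1635, 1764 and 1662 nuclei). Over the 4 libraries these were 7005 and 6698 of 32580 neurons, and the others entered neither group. RNA of Gad1, Gad2, Slc32a1 and Slc17a6 was also found in glia, as given below, so leaked RNA may have put some nuclei in the wrong group. GABAergic neurons had more RNA of the kainate receptor genes Grik3 and Grik1, and glutamatergic neurons more of the metabotropic genes, led by Grm2 and Grm4. Of 39 members tested with edgeR's quasi-likelihood test, 12 were higher in GABAergic and 14 lower, at an adjusted p under 0.05 over all genes. Over all 16279 genes tested, 6.24% were higher and 8.21% lower.

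Among kainate receptor genes, Grik3, which encodes a low-affinity subunit, stood at 147, 166, 148 and 139 CPM in GABAergic neurons. In glutamatergic neurons it stood at 47.3, 54.6, 54.4 and 52.1 CPM. The ranges did not overlap, and the log2 difference was 1.51 (SE 0.04, adjusted p = 7.26e-19). Grik1, the subunit targeted by many kainate-selective drugs, was at 474, 520, 501 and 488 against 286, 273, 286 and 251 CPM (log2 difference 0.84, SE 0.04). Every GABAergic value of Grik1 exceeded every glutamatergic value. Grik4, a high-affinity auxiliary subunit, was lower by a log2 difference of -0.23. Grik2, the most widely used kainate subunit, had a log2 difference of -0.02 and Grik5 of -0.02, and neither passed the test. As a share of the UMIs of Grik1, Grik2 and Grik3 together, Grik3 took 5.40% to 5.96% in GABAergic and 1.98% to 2.35% in glutamatergic neurons.

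No metabotropic gene was called higher in GABAergic neurons by edgeR, and those called lower included members of each group. Grm2, a presynaptic group II receptor, was near its floor in GABAergic neurons at 3.11, 1.91, 3.70 and 2.66 CPM. In glutamatergic neurons it reached 10.0, 10.9, 8.67 and 7.86 CPM, a log2 difference of -1.76 (SE 0.17). Grm4, a group III receptor, was at 11.8, 10.8, 10.3 and 8.33 against 26.5, 19.2, 19.5 and 18.9 CPM (log2 difference -1.05, SE 0.09). For both genes every GABAergic value lay below every glutamatergic value. The abundant group III genes differed less, with log2 differences of -0.46 for Grm8 and -0.36 for Grm7. In group I, Grm5, which is widely expressed in neurons, was lower by -0.20. Grm3, the other group II gene, had a log2 difference of 0.10 and did not pass.

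Among AMPA and NMDA receptor genes the differences were small. Gria4, an AMPA subunit with fast kinetics, was at 1333, 1325, 1334 and 1330 CPM in GABAergic neurons. It was at 1049, 1106, 1111 and 1166 CPM in glutamatergic neurons (log2 difference 0.25, SE 0.03). Gria2, the subunit whose edited form blocks calcium entry, had a log2 difference of -0.00 and Gria1 of 0.06, and neither passed. Grin2a, which lends NMDA receptors fast decay, was lower by a log2 difference of -0.26, whereas Grin2b, the subunit of slower receptors, had 0.01 and Grin1 0.05 without passing. The delta receptor gene Grid1 was higher by 0.09.

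GABA-A receptor genes lie in clusters, and cluster neighbours did not share a direction throughout. By the gene order of RefSeq on GRCm38.p6, Gabrg1, Gabra2, Gabra4 and Gabrb1 are neighbours with 1 other gene between them. In that cluster Gabrg1 was higher in GABAergic neurons by 0.32 (163, 160, 149 and 162 against 113, 123, 114 and 154 CPM, which overlap through ImP 4). Its neighbours Gabra4 (-0.28), Gabra2 (-0.11) and Gabrb1 (-0.11) were lower by edgeR, but DESeq2 called none of these neighbours. In the cluster of Gabre, Gabra3 and Gabrq all members were higher, by 0.59, 0.24 and 0.39. Levels of Gabre were 5.39, 6.88, 5.07 and 7.17 against 2.97, 4.39, 3.06 and 5.79 CPM, which overlap, although each library had more in its GABAergic neurons. Gabrg3 was higher by 0.32 at 1199, 1203, 1201 and 1207 against 914, 950, 965 and 971 CPM, while its neighbour Gabra5 had -0.11 without passing. In another cluster Gabrb2 (-0.04) did not pass and Gabra6 was too rare to test. Gabbr2 was lower by -0.32, and its partner Gabbr1 had -0.03 and did not pass.

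Of these 26 calls, 16 held in every alternative run and 10, all with log2 differences of at most 0.59 in size, were lost in at least 1. DESeq2 kept 17 calls, and those it lost included Gabrq, Gabre, Gabra4, Gabra2, Gabrb1 and Grid1. Without vehicle 1 the calls of Gabrq (0.27) and Gabra4 (-0.14) were lost, and Gabre was lost without vehicle 1 (0.52) or without vehicle 2 (0.58). Among the smallest differences, Gabra2 was lost without vehicle 1 (-0.08), Gabrb1 without vehicle 2 (-0.09) or ImP 4 (-0.10) and Grid1 without vehicle 2 (0.09) or ImP 3 (0.08).

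**Figure D2:**
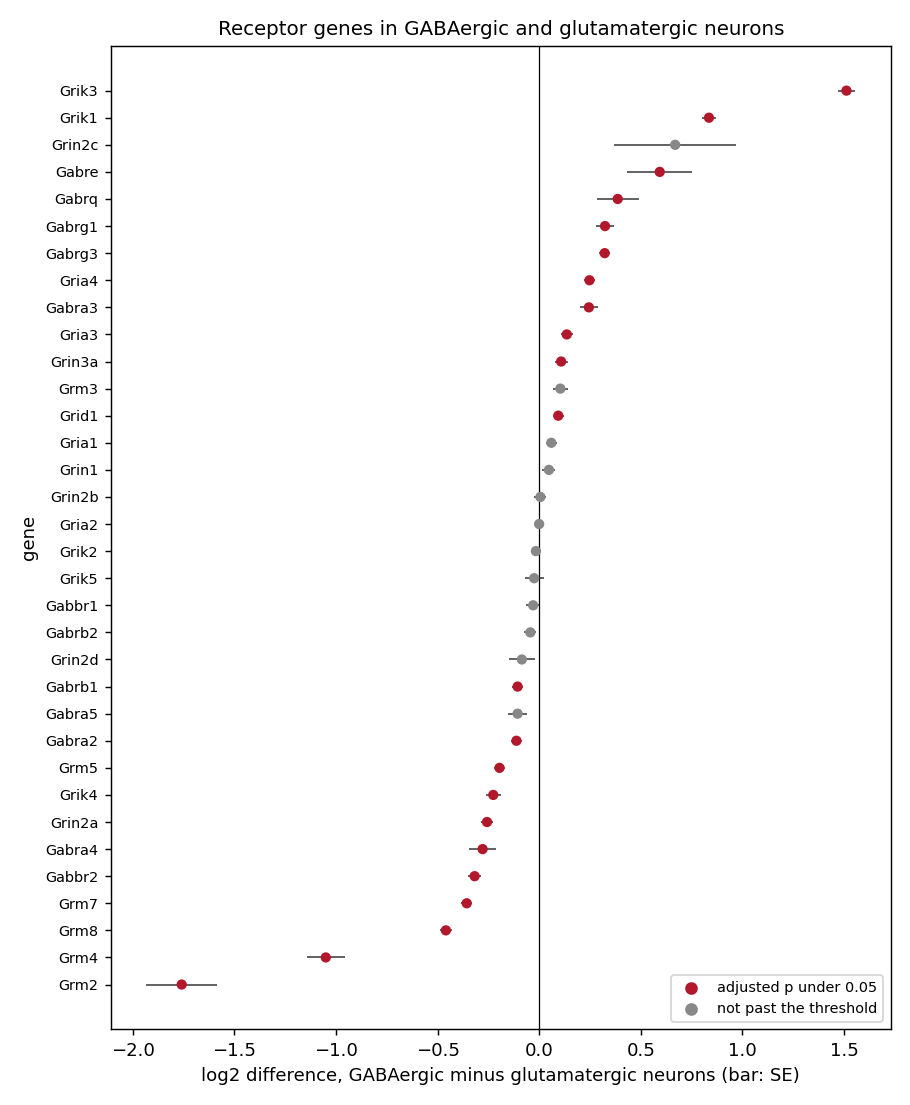
Log2 difference between GABAergic and glutamatergic neurons for 34 of the receptor genes tested, with bars of 1 SE and red points past an adjusted p of 0.05. Grik3 at 1.51 and Grm2 at -1.76 mark the ends, and 11 red points lie above 0 and 11 below.

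The second comparison set each class of glia against neurons. RNA that leaks from broken cells gives every nucleus some UMIs of genes it does not express, so a gauge was kept of 5 genes of neurons (Gad1, Gad2, Slc32a1, Slc17a6 and Scg2). These genes were found in astrocytes at 28.3% to 112% of their neuron level, in oligodendrocytes at 30.7% to 117%, in precursors at 29.3% to 115% and in microglia at 38.6% to 138%. A member within or under that span in a class is not read here as expressed by it. Members above the span numbered 9 of 42 in astrocytes, 5 of 42 in oligodendrocytes, 7 of 41 in precursors and 2 of 40 in microglia, and those below it 20, 27, 12 and 33. Some of those above rested on very few UMIs, such as Gabrr2 in microglia at 0, 10.4, 0 and 0 CPM. Others were Grin3b in precursors (0, 3.92, 1.86 and 0 CPM) and Gabrd in oligodendrocytes (1.34, 0, 0 and 2.30 CPM). The counts above the span are therefore not counts of expressed members. The median log2 difference over all genes was -0.14, -0.12, -0.14 and -0.53 for the 4 classes in that order, so differences are to be read against that shift.

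Astrocytes were higher than neurons in 7 members and lower in 29 of 42 tested, against 24.5% of all genes higher and 32.4% lower. The largest increase was in Grin2c, an NMDA subunit known from astrocytes and cerebellar granule cells. It was at 84.7, 63.6, 67.8 and 65.3 CPM in astrocytes and at 1.55, 1.81, 2.01 and 2.26 CPM in neurons (log2 difference 5.10, SE 0.20). Among the UMIs of the 4 Grin2 genes, Grin2c took 25.4% to 29.6% in astrocytes and 0.145% to 0.222% in neurons. Gria1, an AMPA subunit that forms calcium-permeable receptors when Gria2 is absent, was at 1523, 1437, 1398 and 1134 against 546, 600, 554 and 572 CPM (log2 difference 1.17, SE 0.08). Gria1 was lowest in ImP 4 among astrocytes, but every astrocyte value lay above every neuron value.

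Astrocyte GABA receptor genes centred on Gabrb1 and the GABA-B pair. Gabrb1 was at 2113, 2374, 2226 and 2245 against 1322, 1344, 1317 and 1372 CPM (log2 difference 0.64, SE 0.08), and it took 94.8% to 95.8% of beta subunit UMIs in astrocytes against 48.7% to 50.3% in neurons. Gabbr2 was at 521, 524, 525 and 424 against 198, 202, 202 and 197 CPM (log2 difference 1.21, SE 0.08), and Gabbr1 was higher by 0.81. Gabra4 (0.08) and Gabrg1 (-0.03), the genes of an alpha and a gamma subunit next to Gabrb1 in the genome, were at neuron-like levels and did not pass. Grm3, a group II receptor of astrocytes, was at 460, 551, 523 and 414 against 174, 159, 166 and 150 CPM (log2 difference 1.48, SE 0.08). Large deficits were in Grm8 (-5.49), Grm7 (-5.41), Grin2a (-5.30), Grik1 (-5.09) and Gabrb2 (-4.45). Gabrr2 passed at 1.58 on 14 UMIs in astrocytes, a call lost without ImP 3 (1.46) or without ImP 4 (1.37).

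Oligodendrocytes were higher in 3 members and lower in 35 of 42, against 29.1% and 35.2% of all genes. Gabrr2, a rho subunit of the kind that forms bicuculline-insensitive GABA receptors in the retina, was at 45.4, 60.9, 36.6 and 58.9 CPM in oligodendrocytes. In neurons it was at 0.861, 1.14, 1.03 and 1.57 CPM, a log2 difference of 5.51 (SE 0.20). The other rho genes, Gabrr1 and Gabrr3, had no UMI in oligodendrocytes. Grm3 was at 1247, 1232, 1152 and 1153 against 174, 159, 166 and 150 CPM (log2 difference 2.94, SE 0.08), and Gabbr1 was higher by 0.57. Every oligodendrocyte value of these genes lay above every neuron value. The largest deficits were in Gabrg3 (-5.15), Grin2a (-4.77), Gabrb2 (-4.68), Grid1 (-4.30) and Grm5 (-4.25). Some genes called lower still stood at high levels, such as Grm7 at 980, 916, 1102 and 845 CPM and Grik2 at 920, 923, 916 and 830 CPM, which is within the gauge span at 56.8% and 46.1% of their neuron levels.

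Oligodendrocyte precursors, the dividing glia that receive synapses from neurons, were closest to neurons of the glial classes by the members' median log2 difference. That median was -0.88, against -1.66 in astrocytes, -2.29 in oligodendrocytes and -3.89 in microglia, a description that was not tested between classes. Precursors were higher in 6 members and lower in 25 of 41, against 16.5% and 23.3% of all genes. Grin3a, a subunit that lowers the calcium permeability of NMDA receptors, was at 451, 455, 563 and 500 against 175, 179, 178 and 176 CPM (log2 difference 1.47, SE 0.08). The same NMDA family held the largest deficits, in Grin2a (3.65, 7.84, 7.46 and 3.89 CPM, log2 difference -5.77) and Grin2b (23.7, 25.5, 33.6 and 31.1 CPM, -4.66). Grin1 was also lower, by -2.39.

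The kainate genes Grik4 (327, 298, 261 and 292 against 145, 158, 143 and 156 CPM, log2 difference 0.97) and Grik3 (133, 127, 151 and 138 against 88.9, 107, 90.2 and 92.3 CPM, 0.54) were higher in precursors. Gria3 (0.39), Grid1 (0.38) and Gria2 (0.19) were also higher, but Gria2, at 114.3% of its neuron level, lay within the span of the gauge. The call of Gria2 was lost without vehicle 1 (0.16), without vehicle 2 (0.17) or without ImP 3 (0.18). Among AMPA genes Gria1 differed from its relatives, at 67.5, 80.4, 82.0 and 128 CPM against 546 to 600 CPM in neurons (log2 difference -2.67). As a share of AMPA subunit UMIs, Gria1 took 2.28% to 4.73% in precursors, 54.0% to 60.8% in astrocytes and 17.6% to 19.4% in neurons. Gria4 took 38.8% to 41.7% in precursors, 2.67% to 4.16% in astrocytes and 37.5% to 39.3% in neurons. Other large deficits were in Grm8 (-4.32) and Gabra5 (-2.61).

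Microglia, the resident immune cells, were higher in no member and lower in 34 of 40, against 12% and 23.2% of all genes. By DESeq2, 32 members were called, and 35 had an unadjusted p under 0.05 by edgeR, as did 7555 of 17864 genes. Low relative levels were those of Grik4 (0, 0, 8.15 and 0 CPM, log2 difference -6.57), Grm8 (-6.46), Grik1 (-6.25), Gabrg3 (-6.07) and Grid1 (-5.67). Gabbr1 stood at 230, 135, 293 and 342 CPM, 146% of its neuron level by CPM, with a log2 difference of -0.02 that did not pass. The log2 differences include edgeR's TMM size factors, which rescale each sum, and the CPM values do not, so the 2 measures can disagree. With 66, 78, 110 and 90 microglia, class totals were 91474 to 122699 UMIs, so a single UMI, as Grik4 had in ImP 3, already gave 8.15 CPM.

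**Figure D3:**
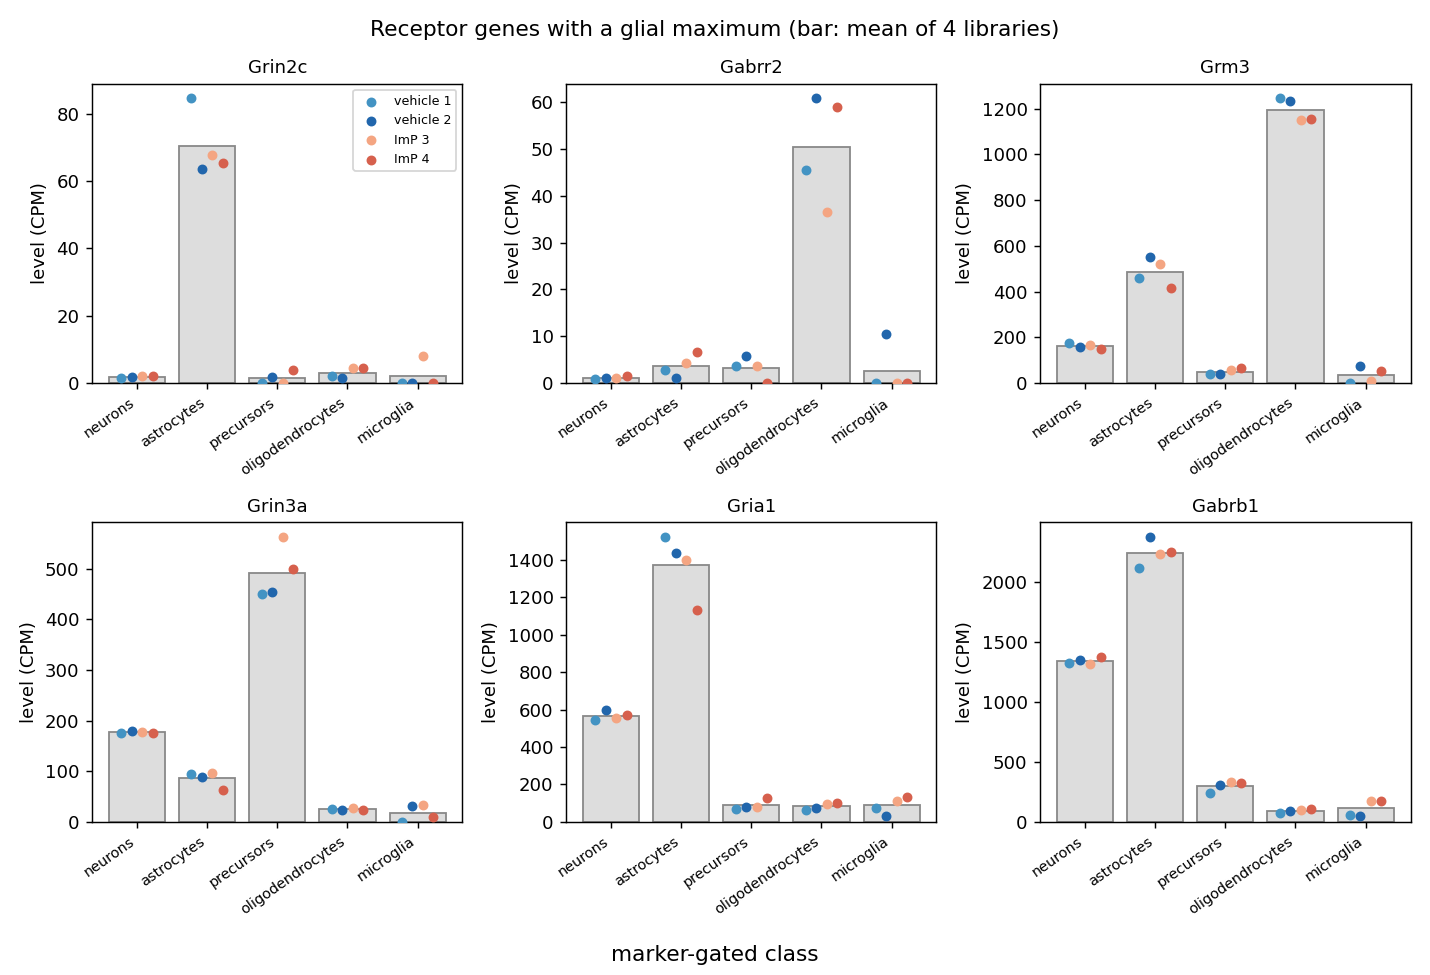
CPM of 6 receptor genes in neurons and 4 glial classes, with bars at the mean and points for the 4 libraries. Grin2c, Gria1 and Gabrb1 peak in astrocytes, Gabrr2 and Grm3 in oligodendrocytes and Grin3a in precursors, and in each peak class every library lies above every neuron value.

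The third comparison described neuron types, gated on UMIs of 1 peptide or enzyme gene each, against the neurons of no type. It took in 8 types with at least 20 nuclei in every library. Of the 45 members, 34 were tested in each type. The types share the same comparison neurons, so their calls are not independent of each other. The gate genes leak as well, so markers that the gates did not use were looked at. Slc18a2, the vesicular monoamine transporter, was at 446, 386, 429 and 439 CPM in Hdc neurons against 20.3 to 26.4 CPM in the neurons of no type. Sim1, a transcription factor of the paraventricular and supraoptic nuclei, was at 530, 587, 651 and 573 CPM in Avp neurons and 485, 461, 490 and 495 CPM in Oxt neurons, against 47.3 to 58.3 CPM. Slc32a1, the vesicular GABA transporter, did not set Sst neurons (45.9, 67.9, 16.9 and 48.0 CPM) or Gal neurons (24.4, 108, 42.9 and 60.1 CPM) apart from neurons of no type at 39.3 to 48.8 CPM.

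Hdc neurons, the histamine neurons of the tuberomammillary nucleus, were set apart most by count, with 9 members higher and 21 lower on 36, 43, 43 and 46 nuclei. Over all 7258 genes tested, 18.2% were higher and 17.8% lower. Grin3a was at 370, 588, 429 and 540 against 172 to 174 CPM (log2 difference 1.56), and Gabra2, an alpha subunit of synaptic GABA-A receptors, was at 1189, 1455, 1270 and 1570 against 491 to 514 CPM (log2 difference 1.53). Gabra2 took 86.4% to 87.2% of alpha subunit UMIs in Hdc neurons and 54.3% to 55.4% in all neurons. Grik1 was at 20.9, 16.2, 8.67 and 50.8 CPM against 360 to 377 CPM (log2 difference -3.81, SE 0.27). Gria3 was at 27.9, 32.5, 21.7 and 54.4 CPM (-3.35) and Grin2a at 45.3, 26.0, 4.33 and 39.9 CPM (-3.29), with no library near the other neurons. Gabrg3 (-3.11) and Gabra3 (-2.06) were the GABA-A genes with the largest deficits.

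Avp neurons, which make vasopressin for water balance, had 7 members higher and 17 lower on 57, 87, 71 and 90 nuclei, against 12.1% and 13.1% of all genes. Oxt neurons, which make oxytocin for parturition and lactation, had 6 higher and 17 lower on 26, 48, 55 and 41 nuclei, against 10.6% and 9.85%. Grm3 was higher in both, at 514, 738, 682 and 470 CPM in Avp and 496, 353, 530 and 438 CPM in Oxt neurons against 168, 153, 159 and 145 CPM in the neurons of no type. The log2 differences were 2.01 (SE 0.11) and 1.57 (SE 0.13). Grik3 was lower in both, by -2.35 and -1.64, and in Oxt neurons vehicle 1 stood higher at 73.3 CPM than the other libraries at 12, 32.4 and 14.3 CPM.

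Vasopressin and oxytocin neurons departed from other neurons in opposite directions in Grin2a. In Oxt neurons Grin2a was at 682, 991, 1005 and 805 CPM against 308, 331, 318 and 289 CPM (log2 difference 1.52, SE 0.13), and in Avp neurons at 73.0, 150, 55.0 and 123 CPM (-1.55). No library of one type came near those of the other. Grin2a took 49.6% to 64.4% of Grin2 UMIs in Oxt neurons and 7.32% to 16.2% in Avp neurons. Grin3a was higher in Avp neurons at 295, 411, 483 and 468 CPM (log2 difference 1.31), while in Oxt neurons it stood at 186, 161, 119 and 133 CPM (-0.21) and did not pass. Grik1 was lower in Oxt neurons by -1.58 and had 0.09 in Avp neurons without passing. The 2 types were not tested directly against each other.

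Pmch neurons of the lateral hypothalamus, which make melanin-concentrating hormone, had 8 members higher and 8 lower on 34, 22, 38 and 40 nuclei, against 10.8% and 10.1% of all genes. Gabra2 was at 1511, 1098, 816 and 864 CPM against 491 to 514 CPM (log2 difference 1.25), and both vehicle libraries lay above both ImP libraries. That order was not tested, and the share of all genes with it in Pmch neurons is not given here. Grm8 was at 1035, 758, 861 and 678 against 384 to 435 CPM (1.17) and Grin2b at 1029, 1281, 1141 and 996 against 703 to 753 CPM (0.75). Other alpha subunit genes were lower, Gabra5 by -1.10, Gabra4 by -1.08 and Gabra3 by -0.69. The call of Gabra4 was lost without vehicle 1 (-0.81). Grik3 was at 24.6, 39.2, 12.2 and 41.3 CPM against 92.5 to 111 CPM (-1.64).

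Trh neurons, which include those that drive the thyroid axis, had 6 members higher and 6 lower, against 3.73% and 3.44% of all genes. Grik3 (27.5, 37.2, 9.10 and 10.7 CPM, log2 difference -1.99), Gabra5 (-1.19) and Grik2 (-0.92) were lower, and Gria3 (682, 557, 591 and 612 against 354 to 401 CPM, 0.72), Grid1 (0.61) and Grm3 (0.54) were higher. The call of Grm3 was lost without ImP 4 (0.39). Grik3 was thus lower in 5 of the 8 types, with log2 differences of -2.35 in Avp, -1.99 in Trh, -1.64 in Oxt and Pmch and -1.09 in Hdc neurons. All these types are set against neurons that include the GABAergic ones, where Grik3 was high. Any part of that in these differences was not tested.

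The remaining types differed little. Sst neurons, which make somatostatin, had 2 members higher and none lower, against 2.47% and 0.978% of all genes. These were Grid1 (863, 1059, 1146 and 1237 against 625 to 670 CPM, log2 difference 0.76) and Grin2a (0.56), and Grin2a was lost without vehicle 2 (0.49) or without ImP 4 (0.40). Gal neurons, which make galanin, had 1 higher, Grik1 (0.70), and 2 lower, Grm5 (-0.48) and Gria3 (-0.45), against 1.85% and 1.89% of all genes. None of these 3 held without ImP 4 (0.54, -0.44 and -0.49). Grm5 was also lost without ImP 3 (-0.41), and Gria3 without vehicle 1 (-0.37) or vehicle 2 (-0.43). Agrp neurons, which promote feeding, had no member past the threshold by edgeR or DESeq2, against 1.14% of all genes by edgeR. At an unadjusted p under 0.05 by edgeR there were 5 of 34 members and 751 of 7258 genes. Their members ranged from -0.47 for Grik1 to 0.22 for Grid1. Npy, a peptide made by the same neurons, was at 111, 216, 119 and 181 CPM there against 10.9 to 30.1 CPM in other neurons. The gate gene Agrp was at 481, 616, 663 and 752 CPM in these neurons and at 58.4 to 62.7 CPM in the neurons of no type. Hdc, in contrast, was at 1046, 965, 1109 and 1226 CPM in Hdc neurons against 1.38 to 2.75 CPM. Some nuclei in the Agrp gate may therefore be other neurons with leaked Agrp, which was not tested and limits the lack of calls.

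Hcrt neurons, which make orexin and sustain waking, had only 16 nuclei in vehicle 1 and were not tested. Their levels of Grik3 were 6.96, 24.1, 42.0 and 7.06 CPM, of Grin2a 34.8, 48.2, 35 and 35.3 CPM and of Gabra2 696, 1025, 1077 and 826 CPM. Neurons of no type stood at 92.5 to 111 CPM for Grik3, at 289 to 331 CPM for Grin2a and at 491 to 514 CPM for Gabra2, outside the Hcrt values in each case. Pomc and Th neurons had too few nuclei in at least 1 library and were left out.

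**Figure D4:**
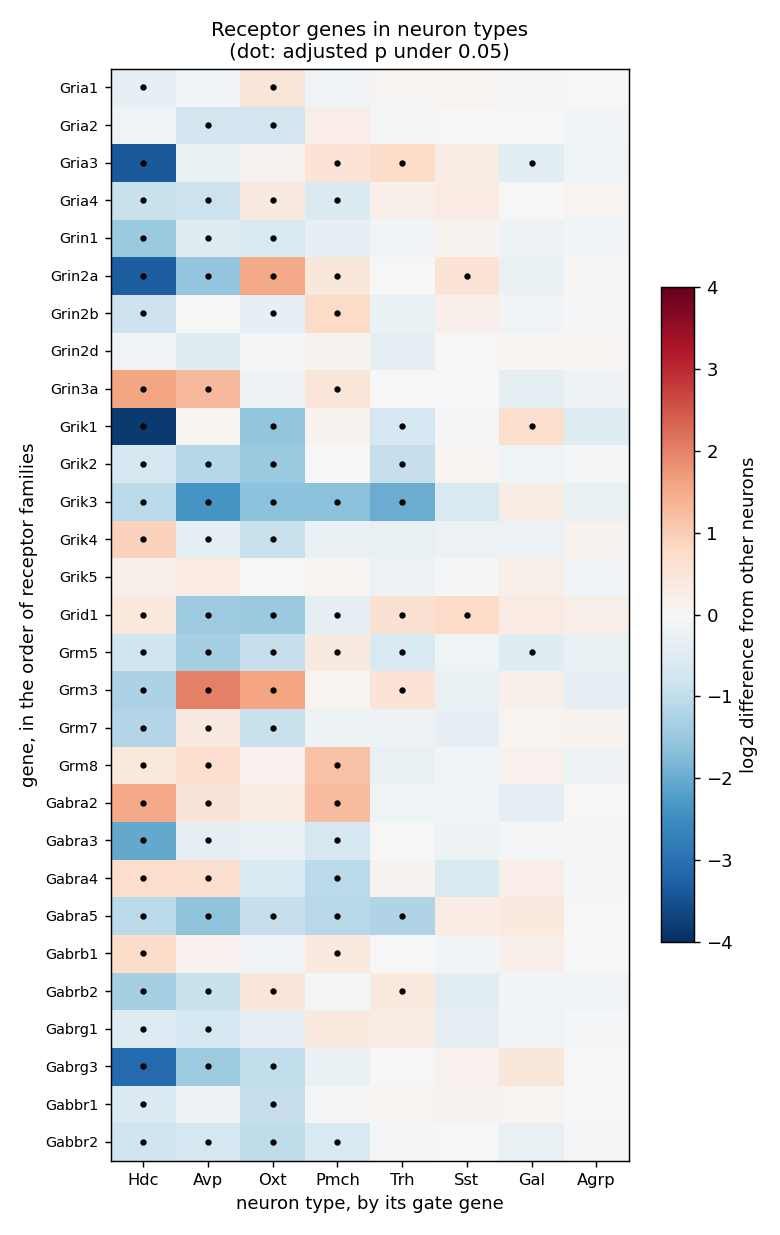
Log2 difference between each of 8 neuron types and neurons of no type for 29 receptor genes, with a dot where the adjusted p was under 0.05. Hdc, Avp and Oxt columns hold most dots, the Grik3 row is below 0 in every type but Gal, with a dot in 5 types, and the Agrp column holds no dot.

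The fourth comparison, that of the study's treatment, asked whether ImP altered these genes. No member passed the threshold in any class by edgeR's quasi-likelihood test or by DESeq2. In all nuclei and in neurons 43 members were tested, in GABAergic neurons 40, in glutamatergic neurons 38, in astrocytes 33, in oligodendrocytes 36 and in precursors 29. At an unadjusted p under 0.05 by edgeR there were 5 members in astrocytes, 7 in oligodendrocytes and none in the other 5 sets. Over all genes that threshold was passed by 1030 of 10395 in astrocytes, 1218 of 11203 in oligodendrocytes and 1550 of 20159 in neurons. The smallest adjusted p of a member was 0.308, in astrocytes. The shares of all genes called were 0.0047% in all nuclei, 0.00496% in neurons, 0.0546% in GABAergic neurons, 0% in glutamatergic neurons, astrocytes and oligodendrocytes and 0.324% in precursors. With 2 libraries per group few genes of any kind were called, and a miss does not show that levels were equal.

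In neurons the median SE of a member was 0.07 on the log2 scale, and the members' median log2 change was -0.02 against -0.00 over all genes. Of 43 members, 2 lay higher in both ImP libraries than in both controls and 9 lay lower, against 17.9% and 20.1% of all genes. Grin1 was at 205 and 183 CPM without and 181 and 163 CPM with ImP, a log2 change of -0.15 (SE 0.08, adjusted p = 0.764), and the gene overlaps an antisense gene whose reads may not be separable. Grin1 lay lower in both ImP libraries in GABAergic neurons too (217 and 187 against 180 and 174 CPM, -0.17) and in glutamatergic neurons (203 and 181 against 177 and 162 CPM, -0.18). Both groups are part of the same neurons, so these values are not separate evidence. There 19.7% and 18.5% of all genes lay lower in both ImP libraries. Grm4 was at 15.7 and 14.5 against 13.9 and 12.5 CPM (-0.17) and Gabrb2 at 317 and 307 against 306 and 270 CPM (-0.10). In the other direction Gabbr1 was at 160 and 170 against 167 and 188 CPM (0.13), Gabrg1 at 139 and 141 against 137 and 161 CPM (0.11) and Gabra5 at 83.2 and 80.0 against 82.1 and 89.5 CPM (0.09). For all of these genes but Grin1, Grm4 and Gabrb2 the groups overlapped, and ImP 4 held the extreme value of each of the 6. The summed level of 4 glial genes, a gauge of leaked glial RNA, was at 226, 287, 376 and 356 CPM in neurons. It was thus higher in both ImP libraries, and its part in these changes was not tested.

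By transmitter, Gabra5 in GABAergic neurons was at 77.8 and 79.0 against 81.2 and 99.1 CPM (log2 change 0.22, SE 0.10, adjusted p = 0.641), and its change was 0.36 without ImP 3, which passed, and -0.018 in nuclei thinned to 1000 UMIs. With 1 library left out it ranged from 0.061 to 0.36. Gabra4 in glutamatergic neurons was at 81.0 and 56.9 against 60.2 and 55.0 CPM (-0.26), where vehicle 1 stood alone. Its change was -0.48 without vehicle 2, which passed, and 0.015 without vehicle 1. Leaving out a library leaves 1 in its group, which is then assumed to vary like the other group. The share of all genes passing in such runs is not given here, so their calls are not read as results about the members. No member's ImP effect differed between GABAergic and glutamatergic neurons by the interaction test of edgeR or by DESeq2, against 0.0647% of all genes by edgeR. At an unadjusted p under 0.05 by edgeR there were 5 of 40 members and 840 of 16994 genes. The smallest p was for Gabra3 (-0.23, SE 0.07, adjusted p = 0.674), which lay at 169 and 187 against 163 and 159 CPM in GABAergic and 132 and 141 against 139 and 155 CPM in glutamatergic neurons. Without vehicle 2 the interaction passed for 2 members, Gabra4 among them (0.47).

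Among glia, Gabra3 in astrocytes was at 11.6 and 16.4 CPM without and 25.8 and 33.2 CPM with ImP, a log2 change of 1.09 (SE 0.36, adjusted p = 0.308). Grik4 was at 85.7 and 69.0 against 55.9 and 55.4 CPM (-0.47). Gabra3 lay under the span of the gauge of neuronal RNA in astrocytes, and the summed gauge was also higher in both ImP libraries, at 453, 563, 638 and 765 CPM. In oligodendrocytes the members' median log2 change was 0.19 against -0.01 over all genes, and 15 of 36 members lay higher in both ImP libraries than in both controls and 3 lay lower, against 23.3% and 18.4% of all genes. Gabrg3 was at 12.7 and 28.3 against 41.7 and 32.9 CPM (0.85, SE 0.31), Grin2b at 28.1 and 37.5 against 53.9 and 43.6 CPM (0.55) and Gria1 at 62.1 and 73.7 against 98.1 and 100.3 CPM (0.52). The gauge in oligodendrocytes was at 449, 553, 647 and 846 CPM, likewise higher in both ImP libraries, and its part in these changes was not tested. With the library-name prefix as a block, Gabrg3 and Gria1 passed in oligodendrocytes. The share of all genes passing under that block is not given here. Gabrg3, Grin2b and Gria1 lay at 2.73%, 5.66% and 14.7% of their neuron levels, under the span of the gauge in oligodendrocytes. In precursors Grm3 was at 38.3 and 41.2 against 55.9 and 64.2 CPM (0.60), Gria1 had a log2 change of 0.51 and Grik5 one of -0.39, and none passed. Grm3 lay within and Gria1 under the span of the gauge in precursors, and the gauge was at 350, 441, 498 and 652 CPM there, likewise higher in both ImP libraries.

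**Figure D5:**
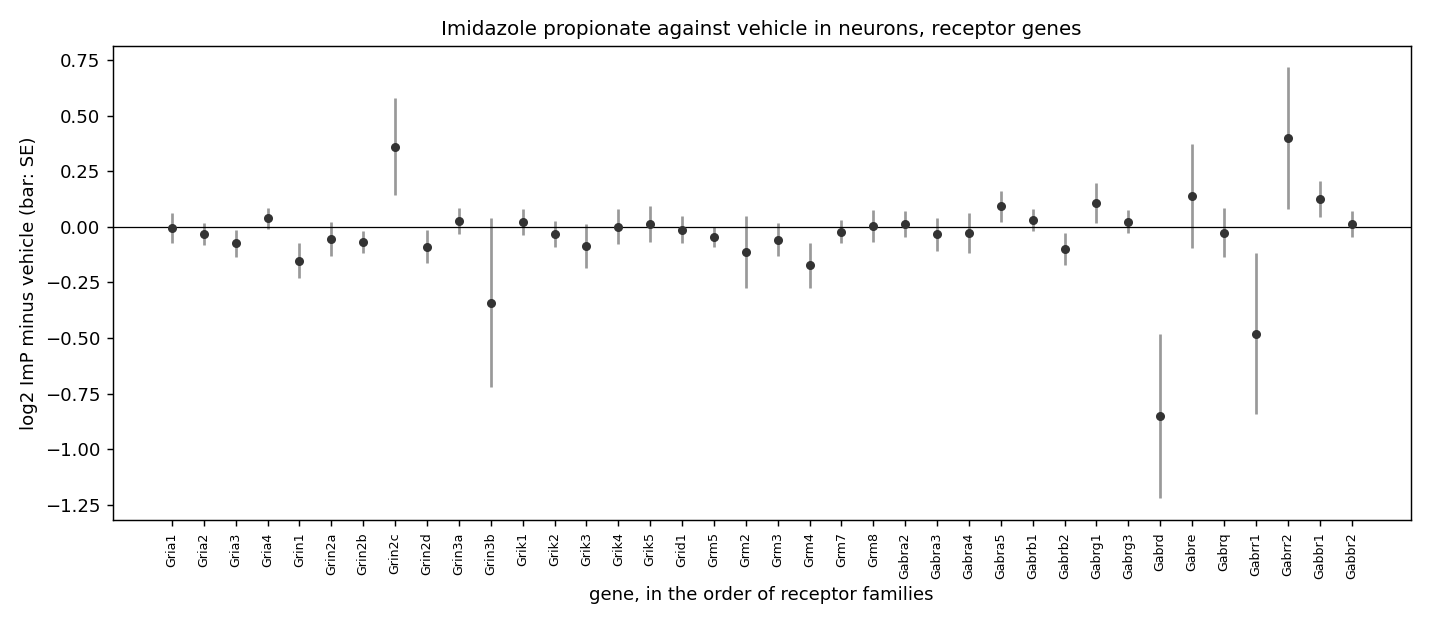
Log2 change with ImP in neurons for 38 receptor genes in the order of receptor families, with bars of 1 SE. Most points lie near 0, the rarest genes Gabrd, Gabrr1, Gabrr2 and Grin3b have the longest bars, and no point passed the test.

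The partners of these receptors were followed in 8 lists with 58 genes, which cover auxiliary subunits, scaffolds, ligands, anchors, chloride transporters and transmitter uptake. None of them passed the test for ImP in any class by edgeR. Between GABAergic and glutamatergic neurons, 14 were higher and 11 lower of 55 tested, against 6.24% and 8.21% of all genes. Both kainate auxiliary genes were higher in GABAergic neurons beside Grik1 and Grik3, Neto1 by 0.30 (124, 134, 120 and 123 against 99.4, 101, 102 and 100.0 CPM) and Neto2 by 0.18. Of 15 AMPA auxiliary genes, 2 were higher and 7 lower, led by Shisa9 (-0.51) and Cnih3 (-1.22), and of 16 glutamate scaffold genes 6 were higher and none lower, with Grip1 at 0.28 and Dlg2 at 0.23. Cbln1, a secreted ligand of delta receptors, was lower by -1.43. Kctd8, an auxiliary subunit of the GABA-B receptor, was higher by 0.50.

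Most partners called in glia were lower than in neurons. In astrocytes 9 were higher and 35 lower of 56 (24.5% and 32.4% of all genes), in oligodendrocytes 9 and 35 of 57 (29.1% and 35.2%), in precursors 19 and 26 of 57 (16.5% and 23.3%) and in microglia 6 and 37 of 56 (12% and 23.2%). Astrocytes were higher in 5 and lower in 2 of 7 transmitter uptake genes tested, the higher ones including the glutamate transporter Slc1a2 (2356, 2395, 2261 and 2152 against 77.9 to 103 CPM, log2 difference 4.64) and the GABA transporter Slc6a11 (4.16). Slc1a3 is among the 5 and is also a marker of the astrocyte gate, so its level there is set by the gate. Oligodendrocytes were higher in Slc12a2, the chloride importer, at 614, 550, 586 and 575 against 55.8 to 60.2 CPM (3.37) and lower in Slc12a5, the chloride exporter (-1.12). Precursors were higher in Cacng4, an AMPA auxiliary subunit, at 329, 394, 351 and 329 against 34.0 to 38.2 CPM (3.28), in Neto1 (1.26) and in the scaffold gene Dlgap1 (0.82). They were lower in Cacng2 (-3.13) and Cacng3 (-3.65), which encode related AMPA auxiliary subunits.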

How the data were processed

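The deposited files hold UMI counts per gene and nucleus, made by the authors with Cell Ranger 8.0.1 on GRCm39, per the file headers and the submitters' processing notes. Those notes list Seurat 5.0.0 too. Not given in the sources used here are the annotation release, strand and intron handling and barcode filter. Kept nuclei (at least 500 genes, at most 5% mitochondrial UMIs) were assigned to a class by at least 3 distinct markers with a lead of 2 times over every other class. No doublet caller was run. Sums of counts over the nuclei of each class in each library gave the CPM values. All genes passing edgeR's low-count filter were tested with edgeR 4.0.16 (TMM size factors, quasi-likelihood, Benjamini-Hochberg adjustment) in R 4.3.3. Comparisons between classes had a library term. The CPM values were not scaled by the size factors. Called means an adjusted p under 0.05. The scripts were tested on simulated data. Members and lists were chosen with earlier results of these data known. Named members had at least 10 CPM and were, per direction, the 6 (classes) or 3 (neuron types) called with the largest log2 difference, or for ImP the 3 with the smallest p. Others named were chosen after their values were seen. Alternatives were DESeq2 1.42.0, other size factors, no filter, stricter gates, nuclei thinned to 1000 UMIs, removal of the 10% of nuclei with the most UMIs, a block for the library-name prefix (111 or 113) and each library left out. Results for some members are not reported here, and the plots leave those members out.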

Additional observations from a re-analysis of the deposited data

How the results depend on the processing

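Between classes and types, 2891 results for single members under an alternative kept their direction and their side of the threshold, 155 lost the call and none reversed. The count of members called between GABAergic and glutamatergic neurons was 26, 17 by DESeq2 and 21 to 26 with 1 library left out. In Pmch neurons it was 16, 7 with nuclei thinned to 1000 UMIs and 11 to 16 with 1 library left out. Without the low-count filter it rose from 0 to 2 in Agrp, from 2 to 4 in Sst and from 3 to 5 in Gal neurons, and without the 10% of nuclei with the most UMIs from 0 to 2 in Agrp neurons. With 1 library left out it was 1 to 3 in Sst and 0 to 3 in Gal neurons. For ImP the count of 0 became 2 in oligodendrocytes with the library-name prefix as a block (Gria1 0.53, Gabrg3 0.87, each under the gauge span there). With 1 library left out it ranged from 0 to 1 in GABAergic neurons, from 0 to 1 in glutamatergic neurons and from 0 to 2 for the interaction. The share of all genes passing for ImP with 1 library left out is not given here. The thinned nuclei reversed Gabra5 in GABAergic neurons (-0.018 against 0.22) and Grm7 in astrocytes (0.092 against -0.53). With 1 library left out, Gabrg1 ranged from -0.023 to 0.20 in all nuclei, from -0.030 to 0.23 in neurons and from -0.038 to 0.39 in glutamatergic neurons, reversed in each without ImP 4. Gabra4 in glutamatergic neurons ranged from -0.48 to 0.015 and Grik4 in oligodendrocytes from -0.41 to 0.072, both reversed without vehicle 1. The causes were not tested. Removal of nuclei with pituitary signs, chosen after seeing the data, changed no call. That removal was not run for the ImP tests in astrocytes, oligodendrocytes and precursors. The stricter type gate was run for Avp and Oxt neurons alone, and the removal of top nuclei was not run for Pmch, Gal and Trh neurons, which fell under 20 nuclei. The groups share no replicate number, and what the library-name prefix marks is not stated, so the block by prefix is not a known pairing. Depth limits microglia and the neuron types most.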
